A study of Mus musculus with 18 samples.

Results

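The Polycomb group genes described here are 9 of the 19912 genes with a single-gene probe set on the array. They were chosen by name: Ezh1, Ezh2, Eed and Suz12 of Polycomb repressive complex PRC2, and Ring1, Bmi1, Cbx2, Cbx7 and Cbx8 of PRC1. Each gene was read from the single-gene probe set with the highest mean over the 18 arrays. Eed had a second probe set, whose mean of 5.51 lay under the background limit used here, 6.16 log2, the lowest of the 18 arrays' 25th percentiles. All 9 genes lay above that limit in all 6 groups.

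The study followed mouse cells through a conversion of cardiac fibroblasts towards cardiomyocytes. Total RNA was hybridised to Affymetrix Mouse Gene 1.0 ST arrays, 3 per group. All cells came from CD1 mice. The reference cells were neonatal cardiomyocytes (CM), the contracting muscle cells of the heart, and neonatal cardiac fibroblasts (CF), its connective tissue cells. Induced cardiomyocyte-like cells that were GFP+ (iCMs) were taken 2 weeks and 4 weeks into reprogramming. GFP- cells, in which reprogramming had failed, were taken at the same 2 times. RNA was prepared with a PicoPure kit, then amplified and biotin-labelled with the MessageAmp II kit in every group. The labels name neither the reprogramming factors, nor the promoter that drove GFP, nor the age of the neonatal mice. The submitters call the replicates biological, but the labels do not tie them to separate animals or cultures. The p-values therefore speak of how these arrays scatter, which may be technical.

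Polycomb proteins keep developmental genes silent. PRC2 places methyl groups on a lysine of histone H3, with Ezh1 or Ezh2 as the catalytic subunit and Eed and Suz12 as core partners that the enzyme needs. PRC1 binds that mark through a Cbx protein and adds ubiquitin to histone H2A through a Ring1 protein partnered by a Pcgf protein such as Bmi1. In heart and other tissues Ezh2 is known as the enzyme of dividing cells and Ezh1 as that of resting ones, and Polycomb complexes are also known to hold down the cell cycle inhibitors of the Cdkn2a locus.

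The promoters of the 2 catalytic subunits and of Suz12 are shown because Ezh2 and Suz12 were the PRC2 genes that were lower in iCMs at 2 weeks than in GFP- cells by the widest margins, with Ezh1 as the paralogue for comparison. Each is the RefSeq window from 250 bases before to 50 bases after the annotated start, on build GRCm38.p6, written on the strand of the gene. Capitals mark an E2F-type motif, the kind bound by E2F factors in promoters of cell cycle genes; the strings TTTGGCGC, TTTGCCGC, TTTCGCGC and TTTCCCGC were searched on both strands, and none is the reverse complement of another.
Ezh2 (chr6:47594981-47595280, minus strand): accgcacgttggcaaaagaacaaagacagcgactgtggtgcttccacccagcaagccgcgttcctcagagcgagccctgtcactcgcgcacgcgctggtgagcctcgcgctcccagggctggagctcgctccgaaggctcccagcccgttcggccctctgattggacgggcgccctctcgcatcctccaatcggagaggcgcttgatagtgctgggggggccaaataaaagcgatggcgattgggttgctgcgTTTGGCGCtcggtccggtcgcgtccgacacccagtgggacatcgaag
Suz12 (chr11:79992856-79993155, plus strand): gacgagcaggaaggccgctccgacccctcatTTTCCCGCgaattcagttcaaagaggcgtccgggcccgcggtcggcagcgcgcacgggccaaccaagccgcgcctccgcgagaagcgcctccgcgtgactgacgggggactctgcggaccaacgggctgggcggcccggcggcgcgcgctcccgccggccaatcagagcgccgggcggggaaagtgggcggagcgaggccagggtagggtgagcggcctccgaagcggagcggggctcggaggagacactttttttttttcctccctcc
Ezh1 (chr11:101226414-101226713, minus strand): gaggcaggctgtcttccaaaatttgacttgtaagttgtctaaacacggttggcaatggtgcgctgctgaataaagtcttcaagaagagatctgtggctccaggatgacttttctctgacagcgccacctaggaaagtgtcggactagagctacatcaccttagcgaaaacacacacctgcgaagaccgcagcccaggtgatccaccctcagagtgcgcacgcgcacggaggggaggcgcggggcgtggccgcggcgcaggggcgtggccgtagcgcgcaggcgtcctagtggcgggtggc
The Ezh2 window held TTTGGCGC, its first base at position 4 counted from the start base as 1, and the Suz12 window held TTTCCCGC, its first base at position -219. The RefSeq gene of Ezh2 begins farther upstream, within the same window, so position 4 is counted from a start inside that gene. The Ezh1 window held none of these strings, which says only that these letters are not in it. Windows were matched for 8 of the 9 genes, all but Cbx2, and 2 of the 8 held a motif. Of all 32851 windows, 2.26% held one, and of the 15600 array genes with a window, 3.48% did. The Ezh1, Ezh2 and Suz12 windows held 23, 31 and 41 CG dinucleotides, against a median of 7 over all windows. Each searched string holds a CG itself, and the shares above were not matched for CG content. No excess of motifs is therefore read from the 2 of 8. A motif match is a description of the sequence, not evidence that a factor is bound there.

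Array medians ran from 7.32 to 7.44 log2, so the arrays were on a like scale. Values are given as the deposited log2 intensities, and a difference of 1 is 2-fold. The labelled cell types were compared with the mean log2 level of their marker genes. The 8 cardiomyocyte markers, among them Actc1, Myh6 and Tnnt2, averaged 7.57 in CF, 8.39 and 8.48 in GFP- cells at 2 and 4 weeks, 11.35 and 12.11 in iCMs, and 13.11 in CM. The 8 fibroblast markers, among them Col1a1 and Postn, averaged 10.61 in CF and 8.75 to 9.56 in the other groups. They did not all move alike. At each time 7 were called lower in iCMs than in CF and 1 higher, with the highest difference at 2.07 log2 at 2 weeks and 1.10 at 4 weeks. Against GFP- cells, 4 were higher in iCMs and 1 lower at 2 weeks, and 2 were higher and 4 lower at 4 weeks. The 10 macrophage markers, among them Csf1r, Adgre1 and Ptprc, averaged 11.70 in CF, 11.89 and 11.88 in GFP- cells, 9.56 and 9.09 in iCMs, and 6.59 in CM, where 3 of them were under the background limit. All 10 were lower in iCMs than in CF or in GFP- cells at both times. The 6 endothelial markers averaged 6.64 in CF, 7.86 and 8.85 in GFP- cells, 6.78 and 7.16 in iCMs and 9.01 in CM. The cell populations therefore differed in more than the label names, and in bulk RNA a change in the share of a cell type and a change in RNA per cell cannot be told apart.

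Over the 6 groups, 7 of the 9 Polycomb genes differed by limma's moderated F test at a Benjamini-Hochberg adjusted p under 0.05, in a table where 59.7% of genes did. Ezh2 varied most, with group means spanning 1.95 log2, wider than in 92% of genes. Bmi1 spanned 0.95, Ezh1 0.93, Suz12 0.90, Eed 0.62, Cbx8 0.52 and Cbx2 0.46, against a median span of 0.46 over all genes. Ring1, with 0.30, and Cbx7, with 0.14, did not pass the F test (adjusted p = 0.114 and 0.846). Cbx8 passed narrowly (adjusted p = 0.0475), and its call was lost without any 1 of 13 arrays: each iCM array at 2 and 4 weeks, each GFP- array at 2 weeks, GFP- replicate 2 at 4 weeks, CM replicate 1, and CF replicates 1 and 3, where it reached up to 0.129. It was also lost under quantile normalisation (0.0602) and with all single-gene probe sets tested (0.0515).

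**Figure D1:**
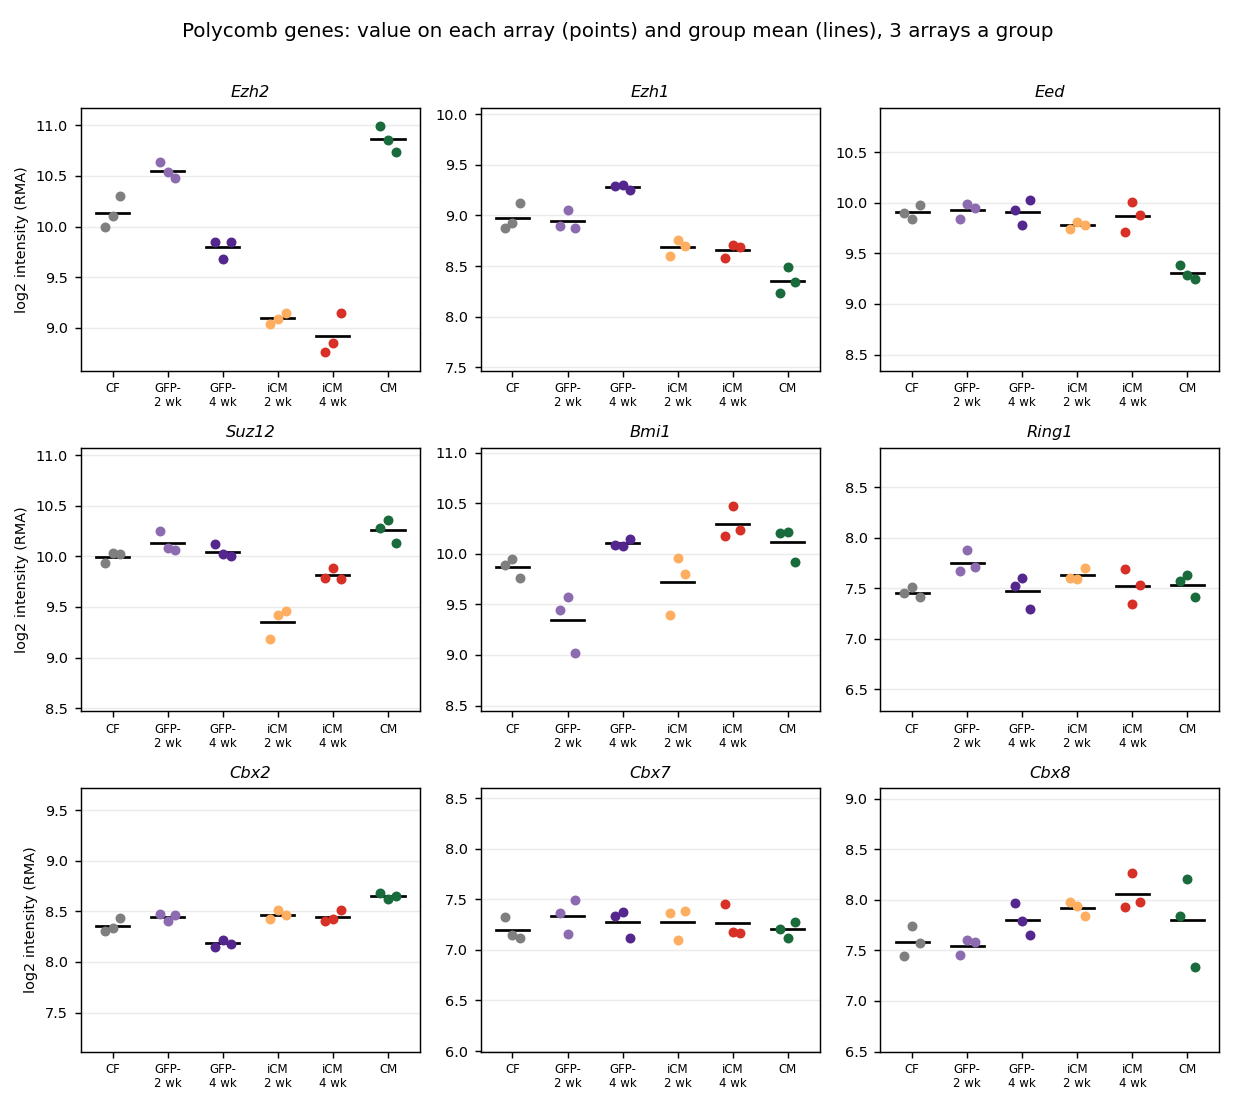
Log2 intensity of the 9 Polycomb genes on each of the 18 arrays, 1 panel per gene and 1 column per group; points are arrays, lines are group means, and every panel spans the same height in log2 units. Ezh2 runs from 8.76 to 10.99, and Cbx7 stays between 7.10 and 7.49.

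Ezh2, the catalytic subunit tied to dividing cells, had the largest differences. It was highest in CM and lowest in iCMs, where it was at least 2-fold under CF and CM at both times. The CM arrays read 10.99, 10.86 and 10.74. GFP- cells at 2 weeks read 10.64, 10.54 and 10.48, and CF read 10.00, 10.10 and 10.30. These 3 groups did not overlap one another, and all lay above the remaining groups. GFP- cells at 4 weeks read 9.85, 9.68 and 9.85. The iCMs read 9.04, 9.09 and 9.15 at 2 weeks and 8.76, 8.85 and 9.15 at 4 weeks. Thus every iCM array was lower than every array of the other 4 groups, and the 2 iCM groups overlapped.

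Against CF, Ezh2 was lower by 2.05-fold in iCMs at 2 weeks (-1.04 ± 0.11 log2, SE, n = 3 per group; adjusted p = 1.68e-07) and by 2.32-fold at 4 weeks (-1.21 ± 0.11; adjusted p = 1.56e-08). Against CM it was lower by 3.41-fold and 3.85-fold (adjusted p = 4.07e-11 and 1.49e-11). So the iCMs were farther from CM in Ezh2 than the CF were, since CM exceeded CF by 0.73 ± 0.11 log2 (adjusted p = 9.46e-06). Within the reprogrammed cultures, Ezh2 was 2.74-fold lower in iCMs than in GFP- cells at 2 weeks (-1.46 ± 0.11; adjusted p = 1.08e-09) and 1.83-fold lower at 4 weeks (-0.87 ± 0.11; adjusted p = 1.4e-06). These calls held without any single array.

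Ezh2 also changed over time in the GFP- cells. It fell by 0.76 ± 0.11 log2 from 2 to 4 weeks (adjusted p = 5.34e-05), having been 0.42 ± 0.11 above CF at 2 weeks (adjusted p = 0.00697). At 4 weeks it was -0.34 ± 0.11 from CF (adjusted p = 0.0432), a call lost without any GFP- array of 4 weeks or without CF replicate 2 or 3 (0.0614 to 0.213), and in a fit of those groups alone (0.0548). In iCMs the change from 2 to 4 weeks was -0.18 ± 0.11 (adjusted p = 0.339; 95% interval -0.40 to 0.05). The time changes of iCMs and GFP- cells differed by 0.58 ± 0.15 (interaction, adjusted p = 0.0332). That call was lost without GFP- replicate 1 of 2 weeks, any iCM array of 2 weeks, iCM replicate 3 of 4 weeks, or GFP- replicate 1 or 2 of 4 weeks (adjusted p = 0.0546 to 0.0988).

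Markers of dividing cells moved with Ezh2 in most comparisons. The mean of 19 cycling genes, among them Mki67, Top2a and Cdk1, was 9.13 ± 0.16 in CF (SD, n = 3), 9.75 ± 0.09 and 8.62 ± 0.11 in GFP- cells at 2 and 4 weeks, 8.06 ± 0.05 and 7.48 ± 0.16 in iCMs, and 9.35 ± 0.19 in CM. All 19 were lower in iCMs than in CF at both times. Against GFP- cells 19 were lower in iCMs at 2 weeks and 18 at 4 weeks. In GFP- cells at 2 weeks 16 were higher than in CF, and from 2 to 4 weeks 18 fell. Between CM and CF, 6 were higher in CM and 3 lower. In iCMs 12 fell from 2 to 4 weeks, while the Ezh2 change of -0.18 was not called. In these comparisons 11.5% to 41.0% of all genes were called. GFP- cells at 2 weeks had a higher cycling mean than CM but lower Ezh2. The part of the cycling genes in the Ezh2 result was not tested, nor was that of the macrophage markers, whose means are given above. The genes whose pattern was most like that of Ezh2, by Pearson r over the 18 arrays among 4429 genes spanning at least 1 log2, were Cenpf (0.993), Sgo2a (0.987) and Hmmr (0.984). Cenpf, a kinetochore protein of dividing cells, averaged 9.61 in CM, 8.49 in CF and 6.97 and 6.59 in iCMs at 2 and 4 weeks. The 18 points share 6 groups, and the correlations are given as a description.

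**Figure D2:**
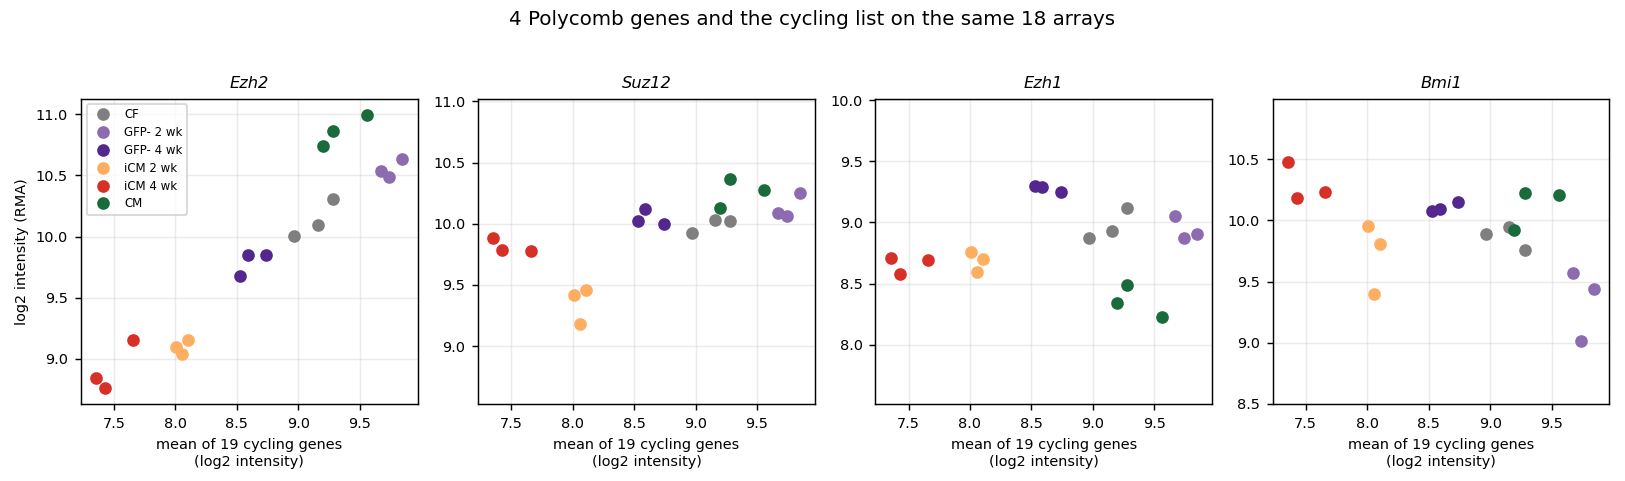
Log2 intensity of Ezh2, Suz12, Ezh1 and Bmi1 (vertical axes) against the mean log2 intensity of 19 cycling genes (horizontal axis), 1 point per array, coloured by group. Ezh2 is lowest on the iCM arrays, where the cycling mean is also lowest, whereas Suz12 is lower in iCMs at 2 weeks (cycling mean 8.06) than at 4 weeks (7.48).

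Ezh1, the paralogue tied to resting cells, was lowest in CM and highest in GFP- cells at 4 weeks. The CM arrays read 8.23, 8.49 and 8.34, all under every array of the other groups. The iCMs read 8.60, 8.76 and 8.70 at 2 weeks and 8.58, 8.71 and 8.69 at 4 weeks. CF read 8.88, 8.93 and 9.12. The iCM groups overlapped each other and lay between CM and CF. GFP- cells read 8.90, 9.05 and 8.88 at 2 weeks, overlapping CF, and 9.29, 9.30 and 9.25 at 4 weeks, above all others. The macrophage markers given above had a like order, lowest in CM, next in iCMs and higher in CF and GFP- cells. Their part in the Ezh1 result was not tested.

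CM was lower than CF in Ezh1 by 1.54-fold (-0.62 ± 0.09 log2; adjusted p = 7.74e-06), the opposite direction to Ezh2. The iCMs were lower than CF by -0.29 ± 0.09 at 2 weeks (adjusted p = 0.0162) and -0.31 ± 0.09 at 4 weeks (adjusted p = 0.0101). They were higher than CM by 0.33 and 0.31 (adjusted p = 0.00466 and 0.00983). Against GFP- cells the difference was -0.26 ± 0.09 at 2 weeks (adjusted p = 0.0294) and -0.62 ± 0.09 at 4 weeks (adjusted p = 1.19e-05), the latter with Ezh1 rising in GFP- cells by 0.34 ± 0.09 between the times (adjusted p = 0.0132). In iCMs the time change was -0.03 ± 0.09 (adjusted p = 0.918). The time changes of the 2 populations were not called different (-0.36 ± 0.13; adjusted p = 0.133), with an unadjusted limma p of 0.0102. The 95% interval, also unadjusted, ran from -0.63 to -0.1, so the lack of a call does not show like changes.

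Of the Ezh1 differences, CM against CF, iCMs against GFP- cells at 4 weeks and iCMs at 2 weeks against CM held without any single array. The call against CF was lost at 2 weeks without iCM replicate 1 or CF replicate 3 (adjusted p = 0.0669 and 0.108) and at 4 weeks without iCM replicate 1 or CF replicate 3 (0.0504 and 0.0767). Against GFP- cells at 2 weeks it was lost without GFP- replicate 2 or iCM replicate 1 or 3 (0.0592 to 0.123), and under quantile normalisation or a fit of those groups alone (0.079 in each). The excess of iCMs over CM at 4 weeks was lost without CM replicate 1 (0.0603), and the rise in GFP- cells without GFP- replicate 1 or 3 of 2 weeks (0.0547 and 0.058). Ezh1 was 0.31 ± 0.09 higher in GFP- cells at 4 weeks than in CF (adjusted p = 0.0302), a call lost without any 1 of 5 of the 6 arrays, all but CF replicate 3 (0.0552 to 0.155).

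The balance of the 2 catalytic subunits was read as the Ezh2 minus Ezh1 difference on each array. Because different probe sets are not on a common scale, only its change between groups is meaningful. It was 2.76, 2.37 and 2.40 in CM, 1.12, 1.17 and 1.19 in CF, and 1.73, 1.49 and 1.61 in GFP- cells at 2 weeks. It was 0.56, 0.38 and 0.60 in GFP- cells at 4 weeks, 0.45, 0.34 and 0.45 in iCMs at 2 weeks, and 0.18, 0.13 and 0.46 in iCMs at 4 weeks. So CM stood highest and iCMs at the low end, with the GFP- cells of 4 weeks overlapping the iCMs. The mean changed by 1.35 from CF to CM, by -0.75 and -0.90 from CF to iCMs at 2 and 4 weeks, by -1.20 from GFP- cells to iCMs at 2 weeks and by -2.25 from CM to iCMs at 4 weeks. In each of these the 3 arrays of one group did not overlap the 3 of the other, which gives the smallest p an exact two-sided permutation test of 3 against 3 allows, 0.1 (0.12 adjusted over the 6 comparisons made). From GFP- cells to iCMs at 4 weeks it changed by -0.25, with overlap (exact p = 0.2).

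Suz12, which holds PRC2 together and is needed for its activity, was lowest in iCMs at 2 weeks. The arrays read 9.18, 9.42 and 9.46 there, under every other array. At 4 weeks the iCMs read 9.79, 9.88 and 9.78. CF read 9.93, 10.03 and 10.02. Thus the iCMs of 4 weeks lay between those of 2 weeks and CF, with no overlap. GFP- cells read 10.25, 10.08 and 10.06 at 2 weeks and 10.12, 10.02 and 10.00 at 4 weeks, and CM read 10.28, 10.36 and 10.13. CF overlapped GFP- cells of 4 weeks, those overlapped GFP- cells of 2 weeks, and those in turn overlapped CM.

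In iCMs at 2 weeks Suz12 was lower than in CF by 1.56-fold (-0.64 ± 0.09 log2; adjusted p = 1.14e-05), than in GFP- cells by 1.71-fold (adjusted p = 7.02e-07) and than in CM by 1.87-fold (adjusted p = 7.36e-08). From 2 to 4 weeks it rose in iCMs by 0.46 ± 0.09 (adjusted p = 0.00256). At 4 weeks it was still under CM (-0.44 ± 0.09; adjusted p = 0.000574), and the differences from CF and GFP- cells were -0.18 (adjusted p = 0.168) and -0.23 (0.0563), with 95% bounds for all non-called Suz12 differences between -0.42 and 0.33. The time changes of iCMs and GFP- cells differed by 0.55 ± 0.13 (adjusted p = 0.0182), a call lost without GFP- replicate 1 of 2 weeks (0.0634). At 2 weeks all 19 cycling genes and all 10 macrophage markers were also lower in iCMs than in CF and in GFP- cells. From 2 to 4 weeks 12 of the 19 cycling genes fell in iCMs, as did 6 of the 10 macrophage markers. Their part in the Suz12 result was not tested. CM exceeded CF by 0.26 ± 0.09 (adjusted p = 0.0248), a call lost without CM replicate 1 or 2 or CF replicate 1 (0.0637 to 0.113). The difference from GFP- cells at 4 weeks was called when dim genes were left out or the variance followed intensity (adjusted p = 0.0403 and 0.0411).

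Eed, the subunit that binds the methylated lysine, was lower in CM than in every other group. CM read 9.39, 9.29 and 9.25, under all other arrays, which lay between 9.71 and 10.03. CM was lower than CF by 1.51-fold (-0.59 ± 0.09 log2; adjusted p = 1.54e-05), and iCMs exceeded CM by 0.46 and 0.55 at 2 and 4 weeks (adjusted p = 0.000266 and 4.64e-05). These 3 calls held without any single array. The 8 other differences ran from -0.15 to 0.09, with 95% bounds of -0.34 and 0.28, and no call was made. Among the PRC2 genes chosen here, CM had more Ezh2 and Suz12 signal and less Ezh1 and Eed signal than CF. Of these calls, that of Suz12 alone depended on single arrays, as given above.

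**Figure D3:**
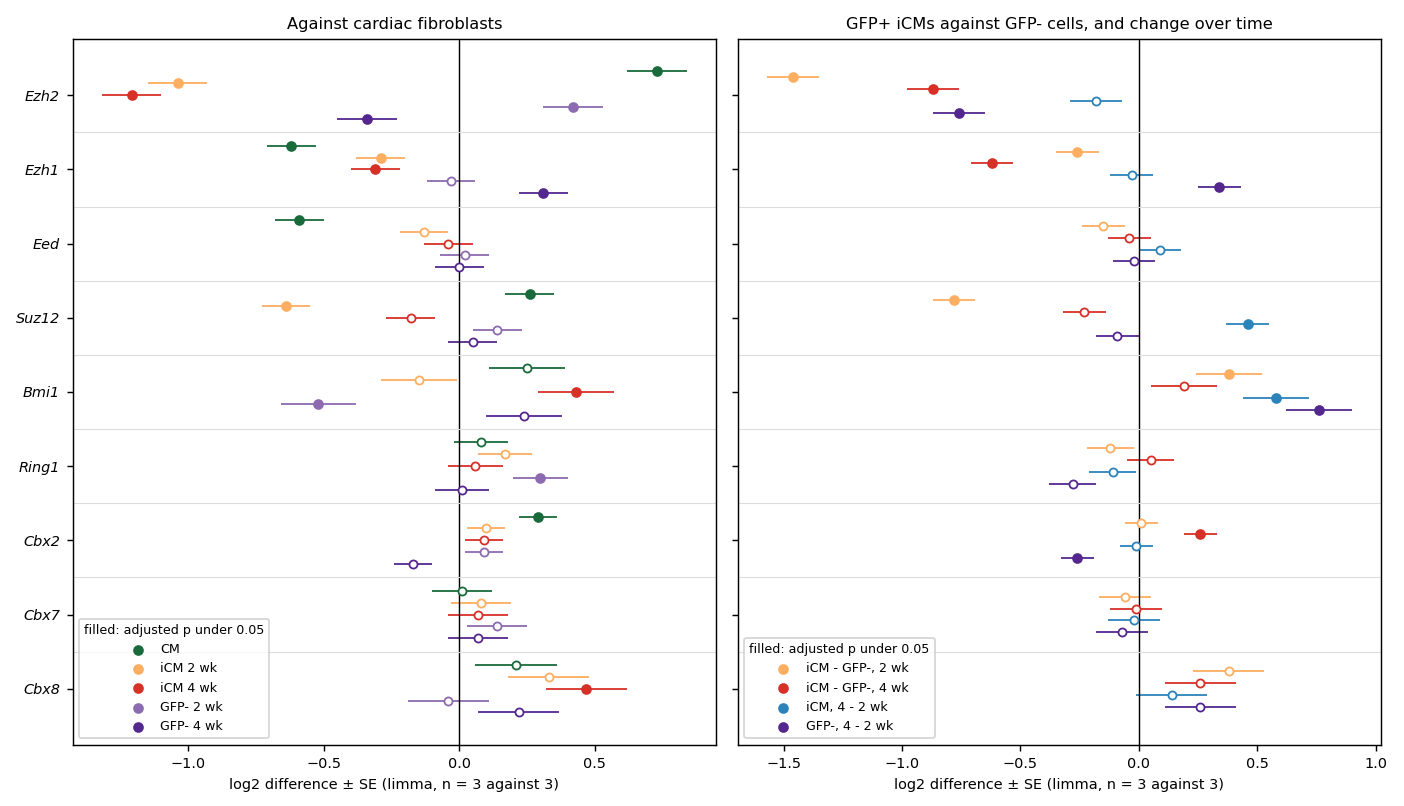
Log2 difference ± SE (limma, 3 arrays per group) of each Polycomb gene, on the left for each group against CF and on the right for iCMs against GFP- cells and for the changes from 2 to 4 weeks; filled symbols passed an adjusted p of 0.05. Ezh2 in iCMs at 2 and 4 weeks against CF lies at -1.04 and -1.21, the lowest values against CF.

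Bmi1, the Pcgf partner that stimulates Ring1 enzymes and is known for repressing Cdkn2a, rose over time in both sorted populations. GFP- cells read 9.44, 9.57 and 9.02 at 2 weeks and 10.09, 10.08 and 10.15 at 4 weeks. The iCMs read 9.40, 9.96 and 9.80 at 2 weeks and 10.18, 10.47 and 10.24 at 4 weeks. In each population every 4-week array exceeded every 2-week array, although the 2-week groups spread over more than 0.5 log2. CF read 9.89, 9.95 and 9.76, and CM read 10.21, 10.22 and 9.92. The rise was 0.76 ± 0.14 in GFP- cells (1.70-fold; adjusted p = 0.00087), held without any single array, and 0.58 ± 0.14 in iCMs (1.49-fold; adjusted p = 0.0119). The latter was lost without iCM replicate 1 of 2 weeks or replicate 2 of 4 weeks (0.0672 and 0.0724). The rises were not called different (-0.19 ± 0.20; adjusted p = 0.727). Between the times the cycling genes fell in both populations, 18 of 19 in GFP- cells and 12 in iCMs, and 4 and 3 of the 6 endothelial markers rose. Their part in the Bmi1 result was not tested.

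Compared with CF, Bmi1 was lower in GFP- cells at 2 weeks (-0.52 ± 0.14; adjusted p = 0.0107), which was lost without GFP- replicate 3 (0.0811), its lowest array. It was higher in iCMs at 4 weeks (0.43 ± 0.14; adjusted p = 0.0266), which was lost without iCM replicate 2 or CF replicate 1 or 3 (0.0533 to 0.127). At 2 weeks iCMs exceeded GFP- cells by 0.38 ± 0.14 (adjusted p = 0.0462) although the arrays overlapped. That call was lost without GFP- replicate 1 or 3, without iCM replicate 2 or 3, and in a fit of those groups alone (0.0542 to 0.287). The iCMs of 2 weeks were below CM (-0.40 ± 0.14; adjusted p = 0.0291), lost without iCM replicate 1 or CM replicate 1 or 2 (0.094 to 0.182). CM against CF was 0.25 ± 0.14 (adjusted p = 0.176), but was called under quantile normalisation (0.38; adjusted p = 0.00799).

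Cbx2, a chromodomain reader that compacts chromatin, moved by small steps on arrays that agreed closely. CM read 8.68, 8.62 and 8.65, above all other arrays, and GFP- cells at 4 weeks read 8.15, 8.22 and 8.18, below all others. The remaining 4 groups overlapped between 8.31 and 8.51. CM exceeded CF by 0.29 ± 0.07 (1.23-fold; adjusted p = 0.00212), and iCMs exceeded GFP- cells at 4 weeks by 0.26 ± 0.07 (1.20-fold; adjusted p = 0.00616). Both calls held without any single array. In GFP- cells Cbx2 fell by 0.26 ± 0.07 from 2 to 4 weeks (adjusted p = 0.0144), lost without replicate 1 of either time (0.0572 and 0.0569) and in a fit of those groups alone (0.0656). The iCMs were lower than CM by -0.19 at 2 weeks (adjusted p = 0.0397) and -0.20 at 4 weeks (adjusted p = 0.0329). At 2 weeks that call was lost without any 1 of 5 of the 6 arrays, all but iCM replicate 2 (0.0545 to 0.104). At 4 weeks it was lost without iCM replicate 1 or 2 or CM replicate 1 or 3 (0.0595 to 0.0936). In fits of the groups compared alone they reached 0.167 and 0.131, and under an intensity trend the 2-week call reached 0.0516.

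Cbx8, another chromodomain reader and the neighbour of Cbx2 on chromosome 11 with 0 protein-coding genes between them in RefSeq, was called in 1 pairwise comparison. The iCMs of 4 weeks read 7.93, 8.26 and 7.98 and CF read 7.44, 7.74 and 7.57, without overlap. The difference was 0.47 ± 0.15 (1.39-fold; adjusted p = 0.024), lost without iCM replicate 2 or CF replicate 1 or 3 (0.0616 to 0.122). The CM arrays scattered widely, at 7.84, 8.21 and 7.34, with the widest SD of any group, 0.43. Without CM replicate 3 the excess of CM over CF was called (0.44; adjusted p = 0.011), and without CM replicate 2 that of the 4-week iCMs over CM was (0.46; adjusted p = 0.0154). A fit of the groups alone also called iCMs at 2 weeks above CF (0.33; adjusted p = 0.0266) and above GFP- cells (0.38; 0.0132).

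Ring1, a ubiquitin ligase of PRC1, read 7.67, 7.88 and 7.71 in GFP- cells at 2 weeks against 7.45, 7.51 and 7.41 in CF. The excess of 0.30 ± 0.10 (1.23-fold; adjusted p = 0.0437) was its only call, and it was lost without any 1 of those 6 arrays (0.0526 to 0.153) and under quantile normalisation (0.0587). The difference of 4 from 2 weeks in GFP- cells, -0.28 ± 0.10, was called only with dim genes left out (adjusted p = 0.0469 against 0.064). The 10 Ring1 differences not called in the main fit, that one included at -0.50 to -0.07, had 95% bounds of -0.50 and 0.39. Cbx7, a reader that is known in self-renewing cells, gave no call in 11 pairwise comparisons, and its arrays lay between 7.10 and 7.49 in every group. Its differences ran from -0.07 to 0.14, with 95% bounds of -0.30 and 0.37.

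Counts by comparison are set here beside the share of all genes called, and many of the comparisons share arrays. Between CM and CF 5 of 9 were called, with 41.0% of all genes: Ezh2, Suz12 and Cbx2 were higher in CM, Ezh1 and Eed lower. Against CF, iCMs at 2 weeks had 3 called (33.3% of all genes), Ezh1, Ezh2 and Suz12, all lower. The iCMs at 4 weeks had 4 (29.5%): Ezh1 and Ezh2 lower, Bmi1 and Cbx8 higher. That count was 1 without CF replicate 3, and 2 without CF replicate 1 or iCM replicate 2. GFP- cells at 2 weeks had 3 called against CF (22.7%), Ezh2 and Ring1 higher and Bmi1 lower, and 1 without GFP- replicate 3. At 4 weeks they had 2 (11.5%), Ezh1 higher and Ezh2 lower. That count was 0 by limma without CF replicate 2 or any 1 of the GFP- arrays, with 2 or 3 at an unadjusted p under 0.05, and 1 without CF replicate 1 or 3. Against CM, iCMs had 6 called at 2 weeks (42.1%) and 5 at 4 weeks (35.1%), where the count was 3 without CM replicate 1. Ezh1 and Eed were above CM, and Ezh2, Suz12 and Cbx2 below it, at both times, with Bmi1 also below at 2 weeks.

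Between iCMs and GFP- cells 4 of 9 were called at 2 weeks (34.5%), Ezh1, Ezh2 and Suz12 lower in iCMs and Bmi1 higher, and 2 without iCM replicate 3. At 4 weeks 3 were called (34.2%), Ezh1 and Ezh2 lower and Cbx2 higher. From 2 to 4 weeks 2 were called in iCMs (11.5%), Suz12 and Bmi1, both higher at 4 weeks, and 1 without iCM replicate 1 of 2 weeks or replicate 2 of 4 weeks. In GFP- cells 4 changed (17.4%), Ezh1 and Bmi1 upward and Ezh2 and Cbx2 downward, and 2 were called without GFP- replicate 1 of 2 weeks. The interaction was called for 2 genes (3.94%), Ezh2 and Suz12. That count was 0 by limma without GFP- replicate 1 of 2 weeks, with 4 at an unadjusted p under 0.05. It was 1 without any iCM array of 2 weeks, iCM replicate 3 of 4 weeks, or GFP- replicate 1 or 2 of 4 weeks. The median absolute difference of the 9 genes was 0.17 log2 between iCMs at 2 weeks and CF, equal to that of all genes, and 0.26 against 0.17 for iCMs and GFP- cells at 2 weeks. Of 99 pairwise differences, many of which share arrays, 41 were called, where 11.5% to 42.1% of all genes were called by comparison. Of the 41, 23 held without any single array of the groups compared. That count was not made for all genes, so nothing particular to the 9 is read from either number. Called differences of at least 2-fold occurred in 1 of the 9, Ezh2. They were those of iCMs at 2 and 4 weeks against CF (7.23% and 7.74% of all genes passed that rule), iCMs against GFP- cells at 2 weeks (9.03%), and iCMs at 2 and 4 weeks against CM (10.5% and 8.34%).

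Of 40 other Polycomb genes listed, 38 were measured, among them PRC2 accessory subunits, the remaining PRC1 subunits, and deubiquitinase and DNA-binding partners. Between CM and CF 10 were higher and 6 lower (41.0% of all genes were called), with a median difference of 0.08 against 0.034 over all genes. Between iCMs and CF 9 were higher and 6 lower at 2 weeks (33.3% of all genes), and 7 and 5 at 4 weeks (29.5%). Between iCMs and GFP- cells 9 were higher and 9 lower at 2 weeks (34.5%), and 11 and 9 at 4 weeks (34.2%). Each count holds genes called in both directions, and nothing particular to the list is read from them. A called difference of at least 2-fold in any of the 11 pairwise comparisons was found for 6 of the 38, where 20.1% of all genes had one.

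Pcgf5, a Pcgf protein that can take the place Bmi1 holds in PRC1, was the one raised most in iCMs. It read 10.78, 11.15 and 11.04 in iCMs at 2 weeks and 11.21, 11.38 and 11.27 at 4 weeks. CF read 9.04, 9.09 and 8.88, GFP- cells averaged 8.62 and 9.05, and CM read 9.85, 9.87 and 9.51. The iCMs were therefore above both reference cell types on every array, by 3.97-fold and 4.87-fold over CF (1.99 and 2.29 ± 0.12 log2; adjusted p = 1.46e-10 and 1.35e-11) and by 2.37-fold and 2.91-fold over CM (adjusted p = 6.7e-08 and 3.99e-09). Sfmbt1, an MBT-domain partner of DNA-binding Polycomb complexes, went the other way. It read 9.76, 9.82 and 9.83 in CF, 8.32, 7.93 and 7.93 in CM and 7.94, 8.31 and 8.44 in iCMs at 2 weeks. It was lower in iCMs than in CF by 2.98-fold at 2 weeks and 2.79-fold at 4 weeks (adjusted p = 5.29e-09 and 1.09e-08), and lower in CM by 3.35-fold (adjusted p = 4.67e-10). The macrophage markers were lower in the same groups, and their part in this was not tested.

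The other named genes moved less. E2f6, the E2F family repressor found in a variant PRC1, exceeded CF by 2.04-fold in CM and 2.08-fold in iCMs at 2 weeks (adjusted p = 1.82e-06 and 2.2e-06). In iCMs at 4 weeks its excess over CF was 0.57 log2 (adjusted p = 0.00219). GFP- cells at 2 weeks also exceeded CF in E2f6, by 0.46 log2 (adjusted p = 0.0145). That call was lost without GFP- replicate 1 or CF replicate 2 (0.0873 and 0.0822). Auts2, which joins Pcgf5-containing PRC1, averaged 7.38 ± 0.15 in CF (SD, n = 3), 8.20 ± 0.04 and 8.52 ± 0.02 in iCMs and 8.38 ± 0.02 in CM. It was 2.20-fold higher in iCMs at 4 weeks than in CF (adjusted p = 1.07e-08). Phf19, an accessory subunit of PRC2 that reads another histone mark, was 2.10-fold lower in iCMs than in GFP- cells at 2 weeks (adjusted p = 8.83e-08), where GFP- cells had their highest level, 7.61 ± 0.22. Scml2 was above the background limit in CM alone (7.10 ± 0.20), at least 1.92-fold over the limit that bounds the 5 other groups, and its adjusted p for CM against CF was 4.02e-09.

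**Figure D4:**
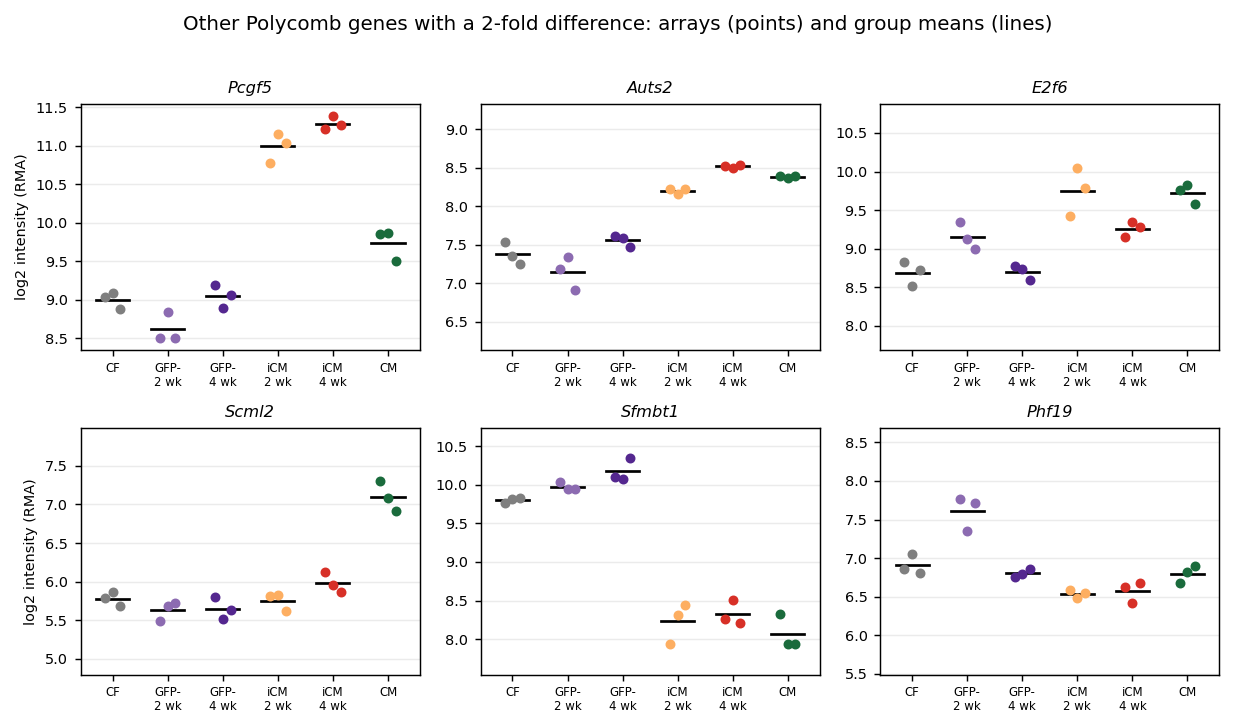
Log2 intensity on each array of the 6 other Polycomb genes with a called difference of at least 2-fold, 1 panel per gene and 1 column per group. The lowest iCM array of Pcgf5 reads 10.78, and the highest array of the other 4 groups reads 9.87.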

How the data were processed

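Gene expression was measured on 18 Affymetrix arrays, 3 for each of 6 groups. The authors deposited 1 table of log2 values per probe set, made by RMA (background correction, quantile normalisation and summary over probes) per the submitters' processing notes; its version is not given in the sources used here. No read depth applies to arrays, so the number of arrays limits the precision. Of 28682 probe sets, 21755 named 1 gene, 1592 several and 5335 none. For each of 19912 genes the single-gene probe set with the highest mean was kept, and the 9 members were read from it. The deposited log2 values were used with no further normalisation.

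All 18 arrays were fitted in 1 limma model (version 3.58.1, R 4.3.3; lmFit and eBayes, prior degrees of freedom 6.96) with 11 pairwise contrasts, 1 interaction and a moderated F test. P-values were adjusted by Benjamini-Hochberg over all 19912 genes within each contrast, two-sided, and called at 0.05. The fitting code was tested on simulated data. Quantile normalisation, a filter on dim genes, an intensity trend, fits of the compared groups alone, all single-gene probe sets, a replicate block and leaving out each array were tried as alternatives.

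The members and gene lists were chosen with earlier results of these data known. All 9 members are named. Of the other Polycomb genes, those called with at least a 2-fold difference in any pair of groups are named. For members spanning at least 1 log2, the 3 genes with the highest Pearson r over the arrays, among genes spanning as much, are named.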

Additional observations from a re-analysis of the deposited data

Results flagged for a closer look

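Both results were picked out because the change from 2 to 4 weeks differed between iCMs and GFP- cells by a test of the difference itself. For Ezh2 the change in iCMs minus that in GFP- cells was 0.58 ± 0.15 log2 (limma, adjusted p = 0.0332): Ezh2 fell by 0.76 in GFP- cells, and its change in iCMs was -0.18 and not called. For Suz12 the difference was 0.55 ± 0.13 log2 (adjusted p = 0.0182): Suz12 rose by 0.46 in iCMs, and its change in GFP- cells was -0.09 and not called. The Ezh2 call was lost without any 1 of 7 of the 12 arrays and the Suz12 call without 1 of them, GFP- replicate 1 of 2 weeks.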

How the results depend on the processing

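No direction of a called difference reversed under any alternative tried. Apart from leaving out arrays, the count of called Polycomb genes moved by over 1.5 times in 1 comparison, GFP- cells at 4 weeks against CF, where a fit of those groups alone gave 1 in place of 2. With the replicate number as a block, iCMs against GFP- cells at 2 weeks gave 5 called genes in place of 4, Cbx8 being added (adjusted p = 0.0379); the block changed no other call among the 9 genes. The labels do not say that a number marks a shared animal or batch. The deviations of same-numbered arrays had a median correlation of 0.01 to 0.03, and 10 of 45 such pairs exceeded 0.1, so the numbers were not taken to pair arrays. As a hint of the data and not of the design, 12 of 18 arrays correlated best with their own number, and over all genes the block raised the calls in each contrast, from 8169 to 8314 for CM against CF and from 785 to 879 for the interaction. Leaving out 1 array of a comparison gave 1 to 2 called genes for GFP- cells at 2 weeks against CF, 0 to 1 for GFP- cells at 4 weeks against CF, 1 to 4 for iCMs at 4 weeks against CF, 2 to 3 for iCMs against GFP- cells at 2 weeks, 3 to 6 for iCMs at 4 weeks against CM, 1 to 2 for iCMs over time, 2 to 4 for GFP- cells over time and 0 to 2 for the interaction. Without 1 array the Ezh2 minus Ezh1 difference kept its direction in all 6 comparisons, with 1.23 to 1.42 for CM against CF and -0.35 to -0.19 for iCMs against GFP- cells at 4 weeks. Quantile normalisation added Bmi1 between CM and CF. It removed Ring1 between GFP- cells at 2 weeks and CF (0.0587), Ezh1 between iCMs and GFP- cells at 2 weeks (0.079) and Cbx8 in the F test (0.0602). Signal near the background limit makes small changes of dim genes the least certain.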

Other observations

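The Cdkn2a and Cdkn2b genes, cell cycle inhibitors of the locus that Polycomb complexes are known to repress, were highest in iCMs at 2 weeks and lowest in CM. Cdkn2b averaged 8.35 in CF and 8.14 and 7.88 in GFP- cells at 2 and 4 weeks. It read 8.87, 9.01 and 8.92 in iCMs at 2 weeks, 8.58, 8.37 and 8.54 at 4 weeks, and 7.24, 7.55 and 7.35 in CM. The excess over CM was 2.94-fold at 2 weeks and 2.17-fold at 4 weeks (limma, adjusted p = 7.11e-09 and 9.82e-07), with no overlap of arrays. CM was also below CF, by -0.97 ± 0.13 log2 (adjusted p = 4.46e-06), so part of the excess over CM was shared by CF. Over CF the iCMs of 2 weeks were higher by 0.59 ± 0.13 (adjusted p = 0.00163), and those of 4 weeks differed by 0.15 ± 0.13 (adjusted p = 0.489). Cdkn2a read 8.18, 8.35 and 7.85 in iCMs at 2 weeks against 7.17, 7.14 and 7.04 in CM, a 2.02-fold excess (adjusted p = 2.81e-06). Cdkn2a averaged 7.49 in CF, and the excess of the 2-week iCMs over CF was 0.64 ± 0.13 (adjusted p = 0.000754). CM was below CF in Cdkn2a by -0.37 log2 (adjusted p = 0.031), lost without CM replicate 2 or 3 or CF replicate 1 or 3 (0.0587 to 0.101). GFP- cells at 2 weeks read 7.54, 7.99 and 7.53 in Cdkn2a, overlapping the iCMs, which exceeded them by 0.44 (adjusted p = 0.0126). That call was lost without GFP- replicate 1 or 3 or iCM replicate 2, and in a fit of those groups alone (0.0639 to 0.0858).

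Of 39 Hox genes, textbook targets of Polycomb repression, 37 were measured, and their mean level lay between 6.43 and 6.59 log2 in all 6 groups, close to the background limit of 6.16. Hoxd8 was the one with a called difference of at least 2-fold: it was 2.20-fold higher in iCMs at 4 weeks than in CM (adjusted p = 3.99e-05). Its CM level was also under CF (-0.66 log2, adjusted p = 0.00566), so part of that excess was shared by CF. CM replicate 1 read 6.04, under the background limit. Against CF the 4-week iCMs differed by 0.47 (adjusted p = 0.0582). That difference was called with dim genes left out, in a fit of those groups alone, or without iCM or CF replicate 1 (0.0238 to 0.0465). Against GFP- cells of 4 weeks the iCMs were higher by 0.89 (adjusted p = 0.000599). Of the 9 PRC2 accessory subunits, 2 were higher and 3 lower in iCMs at 2 weeks than in CF, a comparison where 33.3% of all genes were called. Nothing particular to that list is read from this count. Among the lower ones Rbbp4 and Mtf2, singled out after their values were seen, had, like Suz12, their lowest mean in iCMs at 2 weeks. Rbbp4, a histone-binding subunit, was lower there than in CF by -0.72 ± 0.09 log2 (adjusted p = 2.46e-06) and rose in iCMs by 0.92 ± 0.09 from 2 to 4 weeks (adjusted p = 4.89e-06). Rbbp4 was also lower in GFP- cells at 2 weeks than in CF (-0.44 ± 0.09; adjusted p = 0.00149) and rose there by 0.34 ± 0.09 (adjusted p = 0.0127), a rise lost without GFP- replicate 3 of 2 weeks or replicate 1 of 4 weeks (0.0566 and 0.0553). Rbbp4 in iCMs at 2 weeks was under GFP- cells by only -0.29 log2 (adjusted p = 0.0176). That call was lost without GFP- replicate 1 or iCM replicate 2, under quantile normalisation and in a fit of those groups alone (0.0779 to 0.125). For Mtf2, which helps bring PRC2 to its targets, the 2-week iCMs differed from CF by -0.74 ± 0.09 (adjusted p = 2.89e-06). Its rise in iCMs was 0.50 ± 0.09 (adjusted p = 0.00171).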
